A study of Mus musculus with 16 samples.

Results

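The 8 genes described here serve the defence of inner medullary cells against osmotic stress. They were taken as a named list of Nfat5, the genes for osmolyte synthesis and uptake (Akr1b3, Slc5a3, Slc6a6 and Slc6a12) and heat shock genes (Hspa4l, Hspa1a and Hspa1b), and are 8 of the 54393 genes in the count table. Each symbol had 1 entry in the TPM table, and each identifier was found in the count table. The 16 RNA-seq libraries came from mIMCD3, a single established line from the inner medulla of a mouse carrying an SV40 transgene, with a genotype given as wild type. All cells grew for 10 days on permeable filters, in a medium with insulin, hydrocortisone, EGF and antibiotics, and then received either doxycycline (DOX) at 2 µg/mL or its solvent DMSO on both faces of the filter. The 4 groups, with 4 replicates each, were DMSO for 3 days, DOX for 3 days, DMSO for 6 days and DOX for 6 days. None of the labels names an osmotic treatment.

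Cells of the inner medulla live in urea and salt at concentrations that would shrink and damage most cells. They hold their volume by filling the cytosol with compatible osmolytes, namely sorbitol, myo-inositol, taurine, betaine and glycerophosphocholine, and they shield their proteins with chaperones. NFAT5, also called TonEBP, is the transcription factor that raises the genes for osmolyte synthesis and uptake and for HSP70 when tonicity rises, by binding the tonicity-responsive enhancer (TonE) near those genes.

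DOX lowered part of this set. Slc6a6, the taurine transporter gene, changed by -45.8% at 3 days and -43.9% at 6 days. The HSP70 genes Hspa1b and Hspa1a changed by -42.0% and -39.6% at 3 days, and did not pass the test at 6 days. The 3-day call of Hspa1b held in all 29 alternative fits, and that of Hspa1a was lost in 10, DESeq2 among them. Nfat5 changed by -23.7% at 3 days and -26.2% at 6 days, with all DOX libraries under all DMSO libraries at both times. It passed the test at 6 days and not at 3 days, but the changes at both times did not pass a test of their difference. The 6-day call of Nfat5 was also lost under other methods, DESeq2 and limma on TPM among them. Akr1b3, the gene for aldose reductase and the member with the highest level, was within 1.8% of DMSO at both times.

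Hspa1a and Hspa1b are neighbouring copies on chromosome 17 (GRCm38, minus strand; 34969190 to 34972156 and 34956436 to 34959238), and the near identity of their promoters is shown because it matters for reading both genes. The lines give the 250 bases before each start in RefSeq for GRCm38.p6, at chr17:34972157-34972406 for Hspa1a and chr17:34959239-34959488 for Hspa1b, both on the minus strand, with the heat shock element GAANNTTC in capitals.
Hspa1a: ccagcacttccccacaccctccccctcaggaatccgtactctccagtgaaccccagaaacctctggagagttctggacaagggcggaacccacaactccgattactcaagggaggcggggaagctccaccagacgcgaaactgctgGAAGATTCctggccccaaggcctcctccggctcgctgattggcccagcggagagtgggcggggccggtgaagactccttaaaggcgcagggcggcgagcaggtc
Hspa1b: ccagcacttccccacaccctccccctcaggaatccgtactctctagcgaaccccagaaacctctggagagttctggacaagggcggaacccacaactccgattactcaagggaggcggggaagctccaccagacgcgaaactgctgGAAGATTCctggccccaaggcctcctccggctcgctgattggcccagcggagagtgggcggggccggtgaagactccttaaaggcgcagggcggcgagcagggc
The windows differed at 3 positions, counted from 1 at the 5′ end and written from Hspa1b to Hspa1a as T44C, C47T and G249T. Both held GAAGATTC between 104 and 97 bases before the start. The motif, which reads the same on both strands, was in 6.69% of 32851 promoter windows of this length. The likeness extends into the transcripts. Of the 31-base words in the longest coding transcript, 63.8% for Hspa1a were also in Hspa1b, and 67.5% for Hspa1b were also in Hspa1a, so the division of reads between both genes is uncertain and their sum is given as well.

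Slc6a12 encodes the betaine transporter BGT1, a classic NFAT5 target, and the first of its 5 promoter windows is shown because it was the sole window among the members to hold the TonE consensus, searched on both strands. The window lies at chr6:121342324-121342573 on the plus strand, and the capitals mark the match, 75 to 65 bases before the start.
Slc6a12: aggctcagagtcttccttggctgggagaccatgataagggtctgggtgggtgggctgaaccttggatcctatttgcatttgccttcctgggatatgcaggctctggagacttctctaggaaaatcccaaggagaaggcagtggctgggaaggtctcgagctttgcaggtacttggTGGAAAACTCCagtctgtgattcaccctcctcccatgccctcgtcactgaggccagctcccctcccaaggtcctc
TonE matches were in 4.31% of the 32851 windows, and 5.01% of 27025 genes had a match in any window. Slc6a12 had 5 windows, more than any other member, so the search was not equal between members. The windows of Nfat5, Slc5a3 and Hspa4l held neither set of letters, and Akr1b3 and Slc6a6 had no entry.

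Total estimated counts ran from 16933343 to 23960860 per library, and replicates of a group correlated at 0.981 to 0.992 in log2 CPM (CPM, counts relative to the library total after TMM scaling). The labels do not say whether replicates were separate cultures, so p-values measure the spread between these libraries, which may be technical. The 6 epithelial markers were abundant, with a summed TPM, which also divides by transcript length, of 2125 to 2359 in DMSO and 1570 to 1820 in DOX at 3 days, and 2327 to 2586 and 1590 to 1799 at 6 days. Markers of the native inner medullary collecting duct were scarce. Their summed TPM over 10 genes was 7.21 to 8.93 in DMSO and 3.12 to 4.58 in DOX at 3 days, and 6.93 to 10.2 and 3.31 to 5.08 at 6 days, and 3 of the 10 averaged at least 1 TPM. Aqp2, the vasopressin-regulated water channel, averaged 0.151 TPM and Slc14a2, the urea transporter, 0.0869 TPM. The 14 markers of other cells, mostly Cd68 and Slc34a1, summed to 27.0 to 43.0 in DMSO and 13.6 to 16.7 in DOX at 3 days and to 29.4 to 50.9 and 16.7 to 26.7 at 6 days. On log2(TPM + 1) the median of all tested genes was itself lower under DOX, by -0.15 at 3 days and -0.055 at 6 days. Lower sums of TPM under DOX therefore do not alone show a fall of these markers. By the edgeR test described below, DOX lowered 2 of 6 epithelial markers at 3 days (Krt8 and Cdh1) and 3 at 6 days (Krt8, Krt18 and Cldn4). Of 3 tested collecting duct markers, 2 were called lower at 3 days (Scnn1a and Gata3) and all 3, with Hsd11b2, at 6 days. Hsd11b2 had 11 to 28 counts per DMSO library and 4 to 17 per DOX library at 6 days, and these libraries overlapped in CPM. No DOX library of Hsd11b2 reached 1 CPM, so it entered the test through DMSO libraries alone and its call carries no weight. Of 7 tested markers of other cells the test called Cd68 alone, lower at both times. Of all tested genes, 7.22% were called lower at 3 days and 11.6% at 6 days. The part of these genes in the results below was not tested. In such bulk samples, fewer cells of a kind and less RNA per cell cannot be told apart.

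In TPM over the 8 DMSO libraries, Akr1b3 stood highest at 92.9 ± 11.6 (SD, n = 8) and ranked 1347 of 53354 genes. Hspa1b followed at 66.7 ± 7.42, Hspa4l at 44.9 ± 3.67, Nfat5 at 30.4 ± 5.16, Slc6a6 at 16.5 ± 1.40, Hspa1a at 6.33 ± 1.14 and Slc5a3 at 5.47 ± 1.03 TPM. The ranges of Akr1b3 and Hspa1b overlapped, as did those of Hspa4l and Nfat5 and those of Hspa1a and Slc5a3, so the order within each of these pairs was not larger than the spread. Slc6a12 lay far below, at 0.291 ± 0.213 TPM, and ranked 16443.

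**Figure D1:**
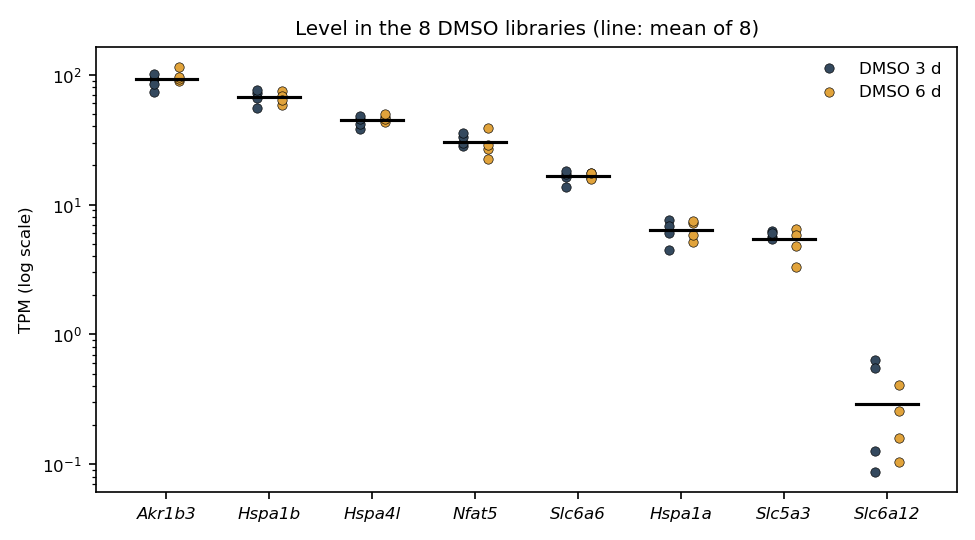
TPM of each gene (log axis) in the 4 DMSO libraries of 3 days and the 4 of 6 days, 1 point per library, with a line at the mean of all 8. Akr1b3 averaged 92.9 TPM and Slc6a12 0.291 TPM, and the other 6 genes lay between.

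The comparisons ask whether DOX, an inducer in many renal cell models, alters these genes. They were made on rounded counts with TMM scaling by edgeR's glmTreat, which asks for a change beyond 1.2-fold. A gene was called where the Benjamini-Hochberg adjusted p over all 13234 tested genes was under 0.05. The other 7 members were above 1 CPM in all 16 libraries, and Slc6a12 was too low to enter the test. The test called 3 of these 7 at 3 days, against 12.5% of all tested genes, all 3 of them lower (7.22% of all tested genes were called lower). At 6 days it called 2 of 7, against 21.6% of all tested genes, both lower (11.6%). The median log2 fold change of the 7 was -0.58 at 3 days, beside 0.0031 over all tested genes, and -0.22 at 6 days, beside -0.00064. In 6 of the 7 members every DOX library of 3 days lay under every DMSO library, which held for 19.8% of all tested genes, and at 6 days this was so for 3 of the 7, against 20.9%. Each time had its own DMSO libraries. The 3 calls of 3 days were Slc6a6, Hspa1a and Hspa1b. The last 2 are counted as separate members, though the division of reads between them is uncertain, so their values are not independent. With the pair summed, edgeR gave -0.78 in log2 at 3 days (adjusted p = 0.00312). The members were chosen with earlier results of these data known, so these counts beside the shares are a description and no independent support.

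**Figure D2:**
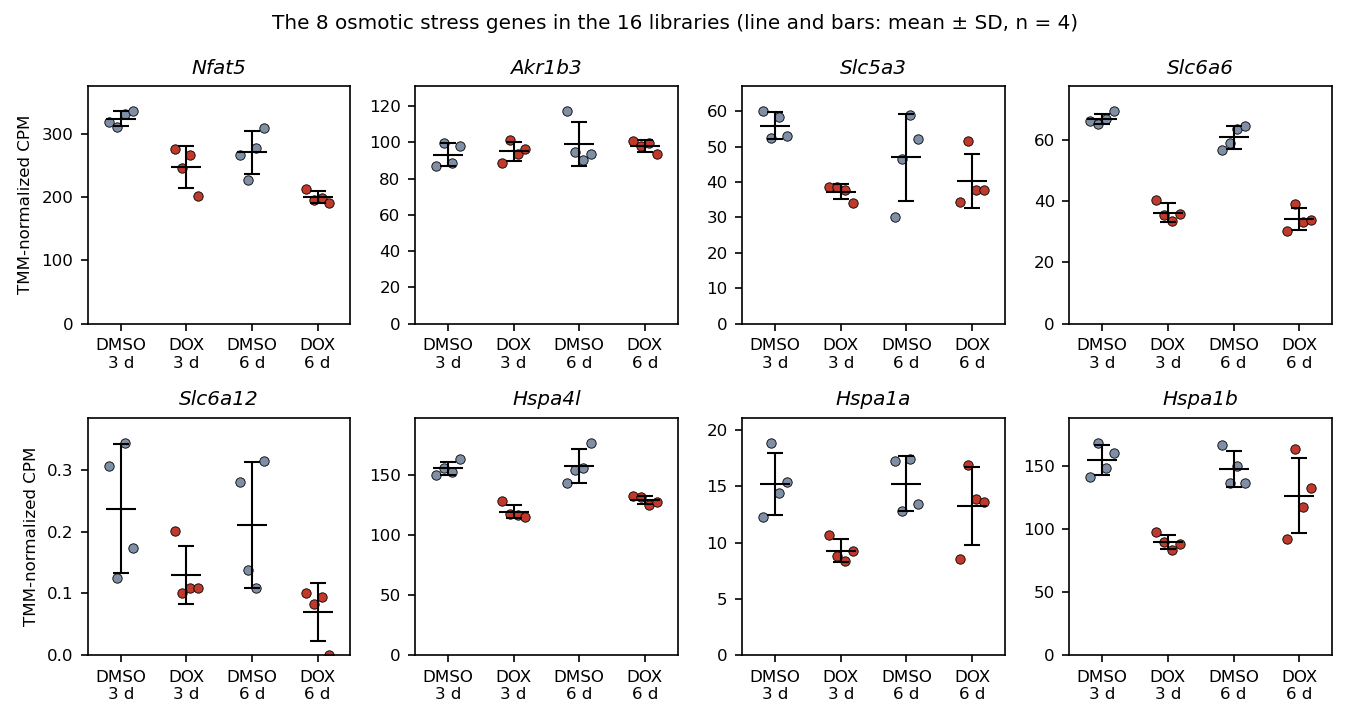
TMM-scaled CPM of the 8 genes in each of the 16 libraries, 1 point per library, with the mean ± SD of each group (n = 4) and axes that start at 0. For Slc6a6 the 8 DMSO libraries lay between 56.6 and 69.4 CPM and the 8 DOX libraries between 30.4 and 40.5 CPM.

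Nfat5 (GRCm38, chromosome 8, 107293470 to 107379517, plus strand) was at 318, 310, 332 and 335 CPM in the DMSO libraries of 3 days and at 276, 245, 266 and 201 CPM in the DOX libraries. At 6 days it was at 267, 227, 278 and 310 CPM in DMSO and at 213, 196, 199 and 191 CPM in DOX. DOX libraries were under all DMSO libraries at both times, but the fourth DOX library at 3 days and the second DMSO library at 6 days were well below their groups. The log2 fold change was -0.39 ± 0.087 (SE) at 3 days, with an edgeR adjusted p of 0.137, and -0.44 ± 0.088 at 6 days, with an edgeR adjusted p of 0.0368. The effects of the 2 times did not pass a test of their difference (-0.048 ± 0.12, adjusted p = 0.828). Leaving out DMSO replicate 3 or 4 or DOX replicate 2, 3 or 4 of 6 days ended the 6-day call, with an adjusted p of up to 0.155. DESeq2 (0.256), limma on log2(TPM + 1) (0.463) and log2(TPM + 0.1) (0.364) and no filter on low counts (0.0619) did not call it.

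Nfat5 is also one of the longest messages of the set, and median changes fell with transcript length at 3 days. At 6 days the top and bottom length deciles did not part in this way. In the top length decile, the 1324 tested genes of 6649 bases and more, the genes had a median log2 fold change of -0.18 at 3 days and -0.071 at 6 days, while those of the bottom decile, up to 1256 bases, stood at 0.21 and -0.079. Nfat5 (13443 bases), Slc5a3 (10913 bases) and Hspa4l (9479 bases) belong to the top decile. With each library's trend over length removed, Nfat5 was at -0.14 at 3 days and at -0.31 at 6 days, and the 6-day call was lost (edgeR adjusted p = 0.311). Whether length has a part in the change of Nfat5 was not tested.

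Over the 16 libraries, the genes whose log2 CPM followed Nfat5 most closely were Wdfy3 (Pearson r = 0.957), Tead1 (0.955) and Syne2 (0.953), with longest transcripts of 14274, 9964 and 21704 bases. Among the members, r with Nfat5 was 0.80 for Slc6a6, 0.67 for Hspa4l, 0.59 for Slc5a3, 0.37 for Hspa1b, 0.27 for Hspa1a and -0.26 for Akr1b3. These values describe libraries that share treatments and depth.

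Akr1b3 (chromosome 6, 34302434 to 34317478, minus strand) makes sorbitol from glucose. In DMSO it was at 86.9, 99.6, 88.7 and 97.9 CPM at 3 days and at 117, 94.5, 90.6 and 93.8 CPM at 6 days. In DOX it was at 88.5, 101, 93.8 and 96.7 CPM and at 101, 98.0, 99.9 and 93.6 CPM. The groups overlapped throughout. The log2 fold change was 0.025 ± 0.072 (SE) at 3 days and -0.013 ± 0.071 at 6 days, both with an edgeR adjusted p of 1.00, and its sign turned with the scaling and with single libraries left out. Other annotated genes share 90.8% of the 31-base words of this message, and Gm38056 alone holds 88.3%. Gm38056 drew 4 to 18 counts per library where Akr1b3 drew 1418 to 2386. These are estimated counts, so they cannot show whether shared reads were divided correctly.

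Slc5a3 (chromosome 16, 92058322 to 92087473, plus strand), the carrier that brings in myo-inositol with sodium, was at 60.0, 52.5, 58.4 and 53.0 CPM in DMSO and at 38.7, 38.7, 37.8 and 34.1 CPM in DOX at 3 days. These groups were far apart. At 6 days the DMSO libraries spread from 30.2 through 46.6, 52.3 and 59.0 CPM, around the DOX values of 34.5, 51.6, 37.8 and 37.9 CPM. In log2, DOX differed from DMSO by -0.58 ± 0.16 (SE) at 3 days, with an edgeR adjusted p of 0.0788, and -0.22 ± 0.16 at 6 days, with 0.785. The spread that enters the 3-day test is shared by all groups, and with the 8 libraries of 3 days alone the adjusted p was 0.00075. Without DMSO replicate 1 of 6 days, the library at 30.2 CPM, it was 0.00774, and without DOX replicate 2 of 6 days 0.0423. With the length trend removed, the change at 3 days was -0.33 (adjusted p = 0.531). Slc5a3 lies inside the Mrps6 locus on the same strand and shares 1.19% of its 31-base words with Mrps6, which drew 830 to 1240 counts per library.

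Slc6a6 (chromosome 6, 91684053 to 91759066, plus strand) showed the steadiest change of the set. It was at 66.3, 65.2, 66.8 and 69.4 CPM in DMSO and at 40.5, 35.4, 33.4 and 35.8 CPM in DOX at 3 days. At 6 days it was at 56.6, 58.9, 63.5 and 64.6 CPM in DMSO and at 30.4, 39.0, 33.3 and 33.8 CPM in DOX. All DOX libraries lay under all DMSO libraries at both times, and the DMSO libraries of 6 days all lay under those of 3 days by a smaller margin. The log2 fold change was -0.88 ± 0.072 (SE) at 3 days (edgeR adjusted p = 2.75e-07) and -0.83 ± 0.072 at 6 days (edgeR adjusted p = 2.79e-07). The fall was called under all 29 alternatives at each time, and with the length trend removed it was -0.71 and -0.79. The difference between times was 0.049 ± 0.10 (adjusted p = 0.783).

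The 3 genes that followed Slc6a6 most closely over the 16 libraries were Akap12, a scaffold for protein kinase A (Pearson r = 0.989), Errfi1, a feedback inhibitor of the EGF receptor (0.983), and Golm1, a Golgi membrane protein (0.983). All 3 were called lower at both times by edgeR, with log2 fold changes of -0.81 and -0.91 for Akap12, -0.84 and -0.90 for Errfi1 and -0.62 and -0.57 for Golm1. Of the other members, Hspa4l was the nearest to Slc6a6, at 0.90.

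Slc6a12 (chromosome 6, 121343076 to 121365775, plus strand) was at the edge of detection. Its estimated counts were 3 to 6 per library in DMSO and 2 to 4 in DOX at 3 days, and 2 to 6 and 0 to 2 at 6 days. Summed over a group they were 18, 10, 16 and 6 in the same order. With 3 counts worth 0.125 to 0.177 CPM here, a change in this gene was not detectable at this depth, and no fold is given.

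Hspa4l (chromosome 3, 40744495 to 40796103, plus strand) encodes an osmotic stress protein of the HSP110 family that helps HSP70 to refold proteins. It was at 151, 156, 153 and 163 CPM in DMSO and at 128, 118, 117 and 116 CPM in DOX at 3 days, and at 144, 154, 156 and 177 CPM against 132, 132, 125 and 128 CPM at 6 days. All DOX libraries were below all DMSO libraries at both times. The difference in log2 was -0.38 ± 0.058 (SE) at 3 days, with an edgeR adjusted p of 0.0584, and -0.29 ± 0.058 at 6 days, with 0.409. Both changes were beyond 1.2-fold in size. The 3-day change passed with the 8 libraries of 3 days alone (0.0437), with 1 CPM required in all libraries (0.0429) and in 3 of 16 fits that left out a library, without DOX replicate 1 of 3 days (0.0147) or DMSO replicate 1 (0.0361) or 4 (0.0313) of 6 days. Without the 1.2-fold threshold both times passed (2.7e-05 and 0.000328). With the length trend removed they were -0.23 and -0.25.

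Hspa1b, an inducible HSP70 chaperone gene, was at 142, 168, 149 and 160 CPM in DMSO and at 97.6, 90.0, 83.5 and 87.9 CPM in DOX at 3 days. The DOX values of 3 days were tightly grouped and all under the DMSO values. At 6 days it was at 167, 137, 150 and 137 CPM in DMSO, and the DOX libraries spread from 91.9 through 118 and 133 to 163 CPM, across the DMSO range. The log2 fold change was -0.79 ± 0.13 (SE) at 3 days (edgeR adjusted p = 0.00216) and -0.22 ± 0.13 at 6 days (edgeR adjusted p = 0.759).

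Hspa1a, which encodes nearly the same protein, was at 12.3, 18.9, 14.4 and 15.4 CPM in DMSO and at 10.7, 8.8, 8.3 and 9.3 CPM in DOX at 3 days. At 6 days it was at 17.3, 12.8, 17.5 and 13.5 CPM in DMSO and at 8.6, 16.9, 13.9 and 13.6 CPM in DOX. As in Hspa1b, the first DOX library of 6 days was the lowest and the second the highest. The change in log2 was -0.73 ± 0.18 (SE) at 3 days, with an edgeR adjusted p of 0.0249, and -0.19 ± 0.17 at 6 days, with 0.864. The 3-day call was lost without DMSO replicate 2 or 4 or DOX replicate 2, 3 or 4 of 3 days, with an adjusted p of up to 0.0746, under DESeq2 (0.0899), on either TPM scale, and with the length trend removed (0.0692). Gm20481 overlaps Hspa1a on the opposite strand and drew 0 to 3 counts per library.

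Taken as 1 quantity, the HSP70 pair fell from 170 ± 14.6 CPM (SD, n = 4) to 99.0 ± 6.83 CPM at 3 days, a log2 difference of -0.78 with an exact two-sided permutation p of 0.0286, the smallest that 4 against 4 allows. At 6 days it was 163 ± 16.5 CPM in DMSO and 140 ± 33.2 CPM in DOX, a difference of -0.25 (exact permutation p = 0.229). The 6-day value depended on single DOX libraries. Without replicate 2, at 180 CPM, the difference was -0.38 with an exact permutation p of 0.0286, and without replicate 1, at 100 CPM, it was -0.099 (exact permutation p = 0.514). In edgeR, Hspa1b did not pass at 6 days with any library left out (lowest adjusted p 0.183). Hspa1b took 89.4% to 92.0% of the pair's counts in every library, close to 1 ratio under all treatments.

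**Figure D3:**
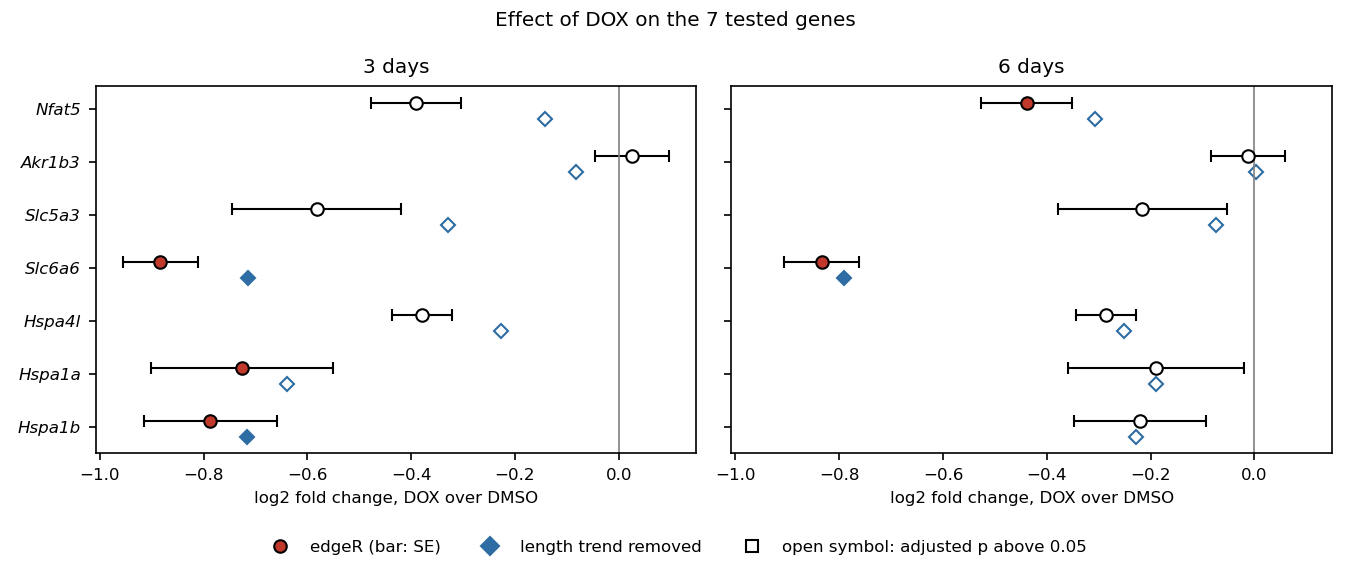
Log2 fold change of DOX over DMSO at 3 days and at 6 days for the 7 tested genes, with edgeR's value (circle, bar for the SE) and the value after removal of the length trend (diamond). Filled symbols had an adjusted p under 0.05, and Slc6a6 alone was filled on both scales at both times.

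The effects of DOX at the 2 times were set against each other by the interaction in the same edgeR model, without a fold threshold, which called 17.0% of all tested genes. It called 1 of the 7 members. For Hspa1b the effect at 6 days minus that at 3 days was 0.57 ± 0.18 (SE, adjusted p = 0.0425) in log2, so the fall was smaller at 6 days. For Hspa1a the value was 0.54 ± 0.24 (adjusted p = 0.139), and for Slc5a3 it was 0.37 ± 0.23 (adjusted p = 0.299). The Hspa1b call was fragile. It passed in 4 of the 16 fits that left out a library, with an adjusted p between 0.00161 without DOX replicate 1 of 6 days and 0.0888 without DMSO replicate 4 of 3 days, and it did not pass with the HSP70 pair summed (0.0508), with the replicate number as a block (0.061) or with the length trend removed (0.106).

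In the controls alone, DMSO at 6 days against DMSO at 3 days, edgeR called 0 of the 7 members and 0 of the 13234 genes (0.0%). At an unadjusted glmTreat p under 0.05 there were 172 genes, and DESeq2 and limma made 0 calls as well. Without the fold threshold edgeR called 62 genes, 43 higher and 19 lower at 6 days, and 0 members. The lowest unadjusted glmTreat p among the 7 members was 0.259, for Nfat5. That p asks for a change beyond 1.2-fold, so it is no test for a smaller change. For Nfat5 and Slc6a6 all 4 DMSO libraries of 6 days lay under all 4 of 3 days, which held for 5.38% of all tested genes. Nfat5 differed by -0.26 ± 0.087 (SE) and Slc5a3 by -0.25 ± 0.16 in log2, and the other 5 members by -0.14 to 0.084.

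A wider list of 57 genes of osmolyte handling, tonicity and heat shock, of which 51 were tested, was read beside the members. This list too was chosen with earlier results of these data known, so its counts are a description. The test called 12 of 51 at 3 days (12.5% of all tested genes), 11 lower (7.22%) and 1 higher (5.3%), and 11 of 51 at 6 days (21.6%), 7 lower (11.6%) and 4 higher (10.0%). Akr1b7, the 1 gene called higher at 3 days and among the 4 at 6 days, entered the test through its DOX libraries alone. The list's median log2 fold change was -0.078 at 3 days and -0.060 at 6 days. With the length trend removed, 7 genes of the list were called at 3 days (Akr1b7, Chdh, Cryab, Csad, Hsp90ab1, Hspb1 and Sgk1), so the 3-day calls of Aqp1, Gdpd5, Akap13, Dhx9, Lrrc8a, Lrrc8b and Trpv4 were lost.

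**Figure D4:**
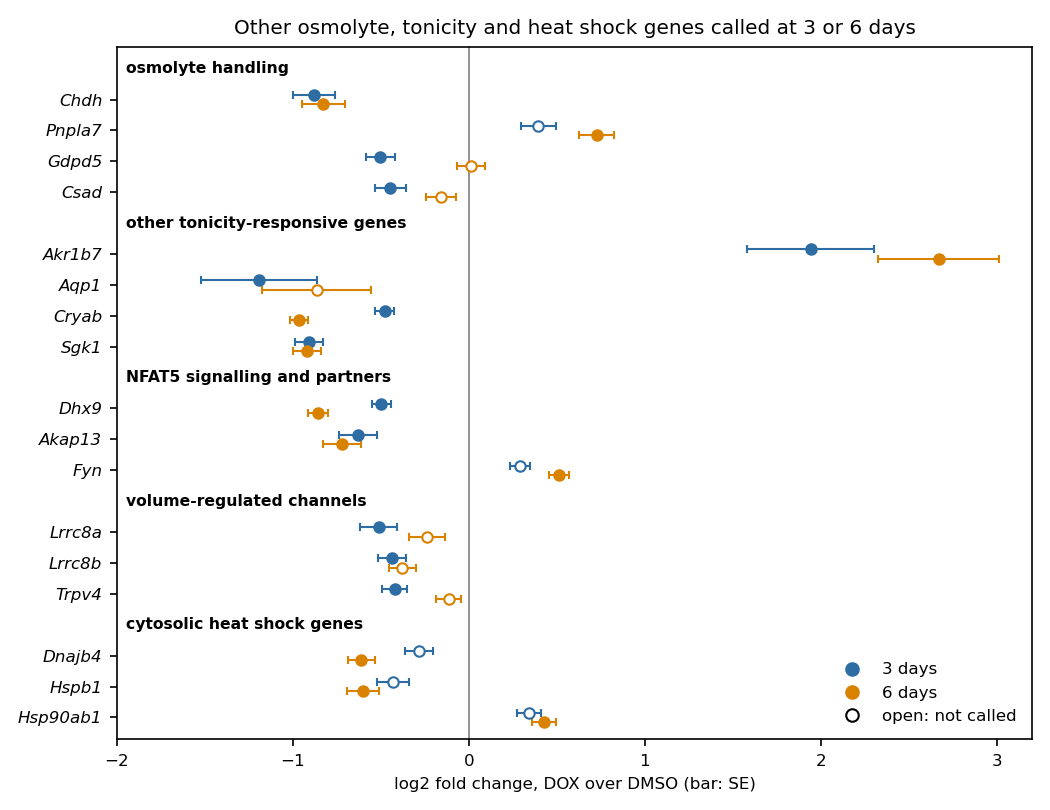
Log2 fold change of DOX over DMSO (point, bar for the SE) at 3 and 6 days for the 17 genes of the wider list called at either time, by role, with open symbols where the gene was not called at that time. Chdh, Sgk1, Cryab, Akap13 and Dhx9 were called lower and Akr1b7 higher at both times. Akr1b7 entered the test through its DOX libraries alone.

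Of 13 tested genes for other osmolyte steps, 3 were called lower at 3 days (7.22% of all tested genes). At 6 days 1 was called lower (11.6%) and 1 higher (10.0%). Chdh, which starts betaine synthesis from choline, was lower at both times by edgeR, at -0.88 ± 0.12 (SE, adjusted p = 0.00018) and -0.83 ± 0.12 (0.00019). Its level went from 39.8 ± 1.52 to 21.6 ± 5.32 CPM at 3 days and from 35.7 ± 2.86 to 20.1 ± 2.34 CPM at 6 days (SD, n = 4). Gdpd5, which breaks down glycerophosphocholine, was lower at 3 days alone (-0.50 ± 0.083, edgeR adjusted p = 0.0106), stood at 0.012 at 6 days, and differed between times (0.52 ± 0.12, adjusted p = 0.00624). Csad, which makes the taurine precursor hypotaurine, was lower at 3 days (-0.45 ± 0.088, edgeR adjusted p = 0.0496). Pnpla7, a lysophospholipase on the route to glycerophosphocholine, was higher at 6 days (0.73 ± 0.098, edgeR adjusted p = 0.000123). Slc5a11, Slc2a13 and Cdo1 were too low to be tested.

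Of 6 tested genes of the group of other tonicity-responsive genes, 3 were called lower (7.22% of all tested genes) and 1 higher (5.3%) at 3 days. At 6 days 2 were called lower (11.6%) and 1 higher (10.0%). Sgk1, a kinase of salt transport, was lower at -0.91 ± 0.082 and -0.92 ± 0.081 (edgeR adjusted p = 9.29e-07 and 2.26e-07). Cryab, a small heat shock protein, went from 266 ± 14.6 to 191 ± 5.76 CPM at 3 days and from 283 ± 12.6 to 145 ± 4.31 CPM at 6 days (SD, n = 4), and the fall at 6 days was larger by 0.49 ± 0.074 in log2 (adjusted p = 0.000496). Aqp1, a water channel, was lower at 3 days (-1.19 ± 0.33, edgeR adjusted p = 0.0287), on 43 to 69 counts per DMSO library and 15 to 36 per DOX library. At 6 days it was at -0.87 ± 0.31 and was not called (edgeR adjusted p = 0.0814), and the libraries overlapped. Akr1b7, an aldo-keto reductase of the same family as aldose reductase, was higher at both times. Its values were 1.94 ± 0.36 and 2.67 ± 0.34 (edgeR adjusted p = 0.000929 and 4.46e-06), on 2 to 7 counts per DMSO library and 14 to 43 per DOX library. With at most 0.429 CPM in DMSO, Akr1b7 entered the test through its DOX libraries alone, so its calls are no independent support for a rise. Aqp2 and Slc14a2 did not reach the test.

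All 8 genes around NFAT5 signalling were tested, and 2 were called lower at 3 days (7.22% of all tested genes). At 6 days 2 were called lower (11.6%) and 1 higher (10.0%). Dhx9, an RNA helicase that binds NFAT5, fell at both times (-0.50 ± 0.056 and -0.86 ± 0.057), more at 6 days (-0.36 ± 0.080, edgeR adjusted p = 0.00572). Akap13, an anchoring protein for protein kinase A that acts upstream of Nfat5, was at -0.63 ± 0.11 and -0.72 ± 0.11 (edgeR adjusted p = 0.00393 and 0.000419). Fyn, a kinase that acts on NFAT5, was higher at 6 days (0.51 ± 0.057, edgeR adjusted p = 0.000237).

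Of 6 volume-regulated channel genes, 3 were called lower at 3 days (7.22% of all tested genes) and 0 at 6 days (11.6%) by edgeR. With the length trend removed, 0 of the 6 were called at 3 days. At 6 days the unadjusted glmTreat p was under 0.05 for 1 of them, Lrrc8b (0.0243), and DESeq2 and limma called 0. DESeq2 called 0 at 3 days as well. Lrrc8a and Lrrc8b, subunits of the anion channel that lets osmolytes out of swollen cells, were at -0.51 ± 0.10 and -0.44 ± 0.079 at 3 days (edgeR adjusted p = 0.0275 and 0.0404) and at -0.24 and -0.38 at 6 days. Trpv4, a cation channel that opens on swelling, was at -0.42 ± 0.070 at 3 days (edgeR adjusted p = 0.0364) and differed between times by 0.31 ± 0.099 (adjusted p = 0.0372).

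Of 18 tested cytosolic heat shock genes outside the members, 0 were called at 3 days by edgeR (12.5% of all tested genes). At 6 days 2 were called lower (11.6%) and 1 higher (10.0%). At 3 days 2 had an unadjusted glmTreat p under 0.05, limma on either TPM scale called 1 and DESeq2 called 0. Hspb1, a small heat shock protein, was at -0.60 ± 0.091 at 6 days (edgeR adjusted p = 0.00115), and Dnajb4, a partner of HSP70, at -0.61 ± 0.078 (0.000224), a larger fall than at 3 days by 0.33 ± 0.11 (adjusted p = 0.0462). Hsp90ab1, the constitutive HSP90, was higher at 6 days (0.43 ± 0.068, edgeR adjusted p = 0.0162). The median log2 fold change of the 18 was -0.0035 at 3 days and 0.11 at 6 days.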

How the data were processed

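The authors aligned paired 75-base reads of poly(A) RNA, from a directional kit, to Ensembl GRCm38.p6 with STAR 2.6.0c and quantified them with salmon (0.14.10 in the submitters' processing notes). The strand setting is not given in the sources used here. The deposited files hold estimated counts per gene, not normalized, and TPM values made by the authors. Positions and transcripts came from GENCODE M21 and promoters from RefSeq.

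Groups were read from the labels. Counts were rounded, 13234 genes that reached 1 CPM in 4 or more libraries were tested, and all 16 libraries were fitted with edgeR 4.0.16 (R 4.3.3): TMM, robust quasi-likelihood, glmTreat at 1.2-fold, two-sided, Benjamini-Hochberg over all tested genes. The SE is the log2 fold change over the square root of F. Alternatives used RLE, DESeq2 1.42.0, limma 3.58.1 on log2(TPM + 1) or log2(TPM + 0.1), other filters, a replicate block, each library left out, and a per-library spline (5 df) over counts per TPM as the length trend. The fits were tested on simulated data. Every member was named, as was each gene of the wider list called at 3 or 6 days (up to 5 a role). Members and lists were chosen with earlier results of these data known.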

Additional observations from a re-analysis of the deposited data

Results flagged for a closer look

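Akr1b3 at 117 CPM in DMSO replicate 1 of 6 days stood far above the other 3 libraries of its group (90.6 to 94.5 CPM). Slc6a12 at 0.200 CPM in DOX replicate 1 of 3 days stood above its group on 4 counts. These were 2 of 64 groups looked at, and chance alone gives about 1 in 20.

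The effect of DOX at 6 days differed from that at 3 days by the interaction in edgeR for Hspa1b (0.57 in log2, adjusted p = 0.0425) and for 10 of the 51 tested genes of the wider list (19.6%), beside 17.0% of all tested genes. The 5 of these that were also called at 3 or 6 days were Gdpd5 (0.52), Cryab (-0.49), Dhx9 (-0.36), Dnajb4 (-0.33) and Trpv4 (0.31). Positive values stand for a weaker fall at 6 days and negative ones for a deeper fall, except that Gdpd5 was at 0.012 at 6 days.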

How the results depend on the processing

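Slc6a6 was called at both times, and Hspa1b at 3 days, under all 29 alternatives. At 3 days 6 members were called without the fold threshold and 5 with the 8 libraries alone. At 6 days 1 member (Slc6a6) was called, in place of 2, under DESeq2, limma on log2(TPM + 1), limma on log2(TPM + 0.1), no filter beyond 1 count and the length trend with or without a replicate block. For the difference between times, 0 members were called under both limma scales, a 1.2-fold threshold, the replicate block, the length trend with or without that block, and the HSP70 pair summed. Leaving out single libraries gave 2 to 5 members at 3 days, 1 to 2 at 6 days, 0 to 2 for the difference and 0 in DMSO, 8 to 12 and 11 to 15 genes of the wider list, and for the HSP70 pair -0.83 to -0.73 at 3 days and -0.38 to -0.099 at 6 days. The wider list had 6 calls at 3 days under DESeq2, 5 with limma on log2(TPM + 1), 26 without a threshold and 7 with the length trend, and at 6 days 7 on both limma scales and 25 without a threshold. The causes were not tested, beyond the thresholds that some of these settings lift or add.

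Akr1b3 changed sign at 3 days on log2(TPM + 1) (-0.15), log2(TPM + 0.1) (-0.15), with the length trend (-0.083, also with the replicate block) and without DMSO replicate 1 (-0.0074) or DOX replicate 2 (-0.0063), and at 6 days with no filter (0.023), the length trend (0.0023, and 0.0041 with the block) and without DMSO replicate 1 (0.077) or DOX replicate 4 (0.0087). Its values with 1 library left out ran from -0.0074 to 0.058 at 3 days and from -0.054 to 0.077 at 6 days, and it was not called under any of the 29 alternatives. The log2(TPM + 1) scale moved the median of all genes to -0.15 at 3 days and -0.055 at 6 days, and log2(TPM + 0.1) to -0.18 and -0.063. Over all genes, edgeR called 702 higher and 956 lower at 3 days and 1326 and 1530 at 6 days, limma on log2(TPM + 1) 85 and 616 and 376 and 931, and edgeR without the threshold 5982 genes at 3 days and 6702 at 6 days.

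Replicate numbers recur in each group, but equally numbered libraries did not deviate together (mean correlation -0.0955 at 3 days and -0.121 at 6 days), so they were not paired. With the replicate block edgeR still called 3 members at 3 days and 2 at 6 days, and the exact sign-flip test of the HSP70 pair at 3 days gave -0.78 with p = 0.125, the smallest that 4 pairs allow.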
